A study of Homo sapiens with 8 samples.

Results

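The replication-independent histone variant genes H1-10, H2AX, H2AZ1, H2AZ2, H3-3A, H3-3B, MACROH2A1, MACROH2A2 and H2AJ were followed in 22Rv1, an established line grown from a human prostate cancer xenograft that relapsed after castration. They were chosen by name. All 9 symbols were found, each on 1 of the 58735 Ensembl gene rows of the count tables. RNA-seq libraries came from 4 samples given PCC0208017, which the submitters call a MARK3 inhibitor (MARK3i libraries; MARK3 is a microtubule-affinity-regulating kinase), and from 4 given the vehicle DMSO (control libraries). No dose, duration or culture of origin is stated in the labels, so p-values measure the spread between these libraries, which may be technical. Both groups are the same single cell line, and neither the activity of MARK3 nor any histone protein was measured.

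Most histones are made in S phase from clustered genes whose mRNAs end in a stem-loop in place of a poly(A) tail. Replication-independent variants come instead from single genes, mostly with introns and polyadenylated mRNAs, and can be deposited throughout the cell cycle. H3.3, H2A.Z and macroH2A replace canonical H3 and H2A in chromatin, H2AX is the H2A form phosphorylated around DNA breaks, and H1-10 is a linker histone. In prostate cells, as in others, H2A.Z is known at promoters and enhancers.

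Total counts ranged from 13517289 to 21271127 in MARK3i libraries and from 12672817 to 13386143 in control libraries. Counts of the 8 members above the detection filter ranged from 268 to 16610 per library. Prostate luminal epithelial markers were present, with KRT8, a keratin gene, at 551 CPM in MARK3i and 590.2 CPM in control libraries (CPM, read counts scaled to library size, here with TMM factors). The summed level of 3 basal markers reached at most 0.14 CPM in MARK3i and 0.395 CPM in control libraries, and that of 3 endothelial markers 0.0699 CPM in MARK3i and 0.079 CPM in control libraries. The 5 immune markers summed to 0.759 to 1.84 CPM in MARK3i and 1.34 to 1.72 CPM in control libraries. The 5 fibroblast markers summed to 14.3 to 21.6 CPM in MARK3i and 9.40 to 14.5 CPM in control libraries, nearly all of it COL1A1, while PDGFRA was at 0 counts in every library. In such bulk samples fewer cells of a type and less RNA per cell cannot be told apart. Beyond the group difference, the libraries' deviations from their group means fell into 2 sets (first principal component, 43.1% of that variance). MARK3i replicates 1 and 3 lay with control replicates 1 and 2, and MARK3i replicates 2 and 4 with control replicates 3 and 4.

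A stem-loop search set H2AX apart from the other variants, and its sequence is shown beside replication-dependent histone genes. The consensus of the histone 3′ stem-loop (16 bases, some free to vary) was searched on the sense strand of the MANE Select transcript, the agreed reference transcript of each gene (GENCODE release 44, hg38). It occurred in 1 of the 9 members, H2AX, in 68 of 68 replication-dependent histone genes with such a transcript, 64 of which are listed with the counts, and in 0.734% of 19061 protein-coding genes. In H2AX the match lay 50 bases after the coding stop but 1024 bases before the transcript's end, so the annotated transcript runs on past it. In the 3 replication-dependent genes shown, the match ended 5 or 6 bases before the transcript's end. Capitals mark the match, and the coordinates are those of the capitals.
H2AX (chr11:119094898-119094913, minus strand): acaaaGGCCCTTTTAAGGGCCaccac
H2AC6 (chr6:26124669-26124684, plus strand): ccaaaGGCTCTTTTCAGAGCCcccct
H2AC25 (chr1:228457369-228457384, minus strand): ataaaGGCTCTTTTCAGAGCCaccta
H3C10 (chr6:27810516-27810531, plus strand): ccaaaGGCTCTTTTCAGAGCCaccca

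Promoters are shown for the 2 paralog pairs that encode the same or nearly the same protein and whose count ratios differed between the groups. Each sequence holds 250 bases before and 50 after the transcription start (RefSeq, GRCh38.p14), and all 9 members matched that table. For H3-3A, which has 4 entries, the entry at the start of the MANE Select transcript was taken. Capitals mark TATAAA and CCAAT on either strand.
H2AZ1 promoter (chr4:99950226-99950525, minus strand): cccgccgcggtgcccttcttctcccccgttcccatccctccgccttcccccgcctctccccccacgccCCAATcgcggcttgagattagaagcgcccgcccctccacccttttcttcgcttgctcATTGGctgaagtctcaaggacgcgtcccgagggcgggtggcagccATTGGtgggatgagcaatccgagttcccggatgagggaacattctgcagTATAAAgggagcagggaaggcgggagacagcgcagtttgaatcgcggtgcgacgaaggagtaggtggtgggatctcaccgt
H2AZ2 promoter (chr7:44848038-44848337, minus strand): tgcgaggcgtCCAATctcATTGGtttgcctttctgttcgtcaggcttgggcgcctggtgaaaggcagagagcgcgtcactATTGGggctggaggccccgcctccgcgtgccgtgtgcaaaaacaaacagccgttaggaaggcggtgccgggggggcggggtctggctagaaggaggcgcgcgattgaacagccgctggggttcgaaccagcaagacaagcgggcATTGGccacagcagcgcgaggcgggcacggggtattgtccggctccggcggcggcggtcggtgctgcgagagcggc
H3-3A promoter (chr1:226062466-226062765, plus strand): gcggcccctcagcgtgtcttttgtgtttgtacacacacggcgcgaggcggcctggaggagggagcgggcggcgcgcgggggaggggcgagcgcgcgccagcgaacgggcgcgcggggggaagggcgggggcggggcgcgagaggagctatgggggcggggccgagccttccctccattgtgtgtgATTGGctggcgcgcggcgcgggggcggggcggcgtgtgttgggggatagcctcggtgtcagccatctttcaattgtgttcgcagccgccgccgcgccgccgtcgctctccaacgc
H3-3B promoter (chr17:75779730-75780029, minus strand): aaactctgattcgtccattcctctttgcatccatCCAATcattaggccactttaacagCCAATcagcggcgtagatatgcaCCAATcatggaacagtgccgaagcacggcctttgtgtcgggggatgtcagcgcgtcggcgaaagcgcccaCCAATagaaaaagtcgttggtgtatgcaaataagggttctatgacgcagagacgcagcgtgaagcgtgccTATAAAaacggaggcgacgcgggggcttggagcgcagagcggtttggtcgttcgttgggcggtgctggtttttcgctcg
H2AZ1 and H3-3B held 1 TATAAA each, at −31 and −29 from the start, and H2AZ2 and H3-3A held none in this window. The same letters stood at −31 in H1-10 and H2AX. Anywhere in the window and on either strand, they occurred in 11.5% of all 35116 promoters of this length. The share of promoters with them near −31 was not counted. CCAAT occurred 3 times in H2AZ1, 4 times in H2AZ2, once in H3-3A and 4 times in H3-3B, and in 34.6% of all promoters. Neither CACGTG, the E-box letters bound by MYC, nor TTTCCCGC or TTTGGCGC, letters bound by E2F factors, was found in any of the 9, against 7.26%, 1.63% and 0.652% of all promoters. These matches are letters in a window and show no binding.

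Of the 9 members, 8 passed the filter on low counts and were tested, and H2AJ did not. H3-3B and H1-10 were higher in MARK3i libraries and H2AZ1, MACROH2A1 and MACROH2A2 were lower (edgeR quasi-likelihood test, Benjamini-Hochberg adjusted p under 0.05 over all 16452 genes tested). H2AX, H2AZ2 and H3-3A did not pass. Among all tested genes 58.1% passed, 29.8% higher and 28.3% lower, so 5 of 8 members is a share near the background. The median absolute log2 change was 0.33 for the 8 members and 0.33 for all tested genes, and no member reached a log2 change of 1. The groups of libraries did not overlap for 6 members, against 51% of all tested genes. Summed over the 9 members the level was 3285 ± 162 CPM in MARK3i and 3269 ± 81.1 CPM in control libraries (SD, n = 4 each).

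**Figure D1:**
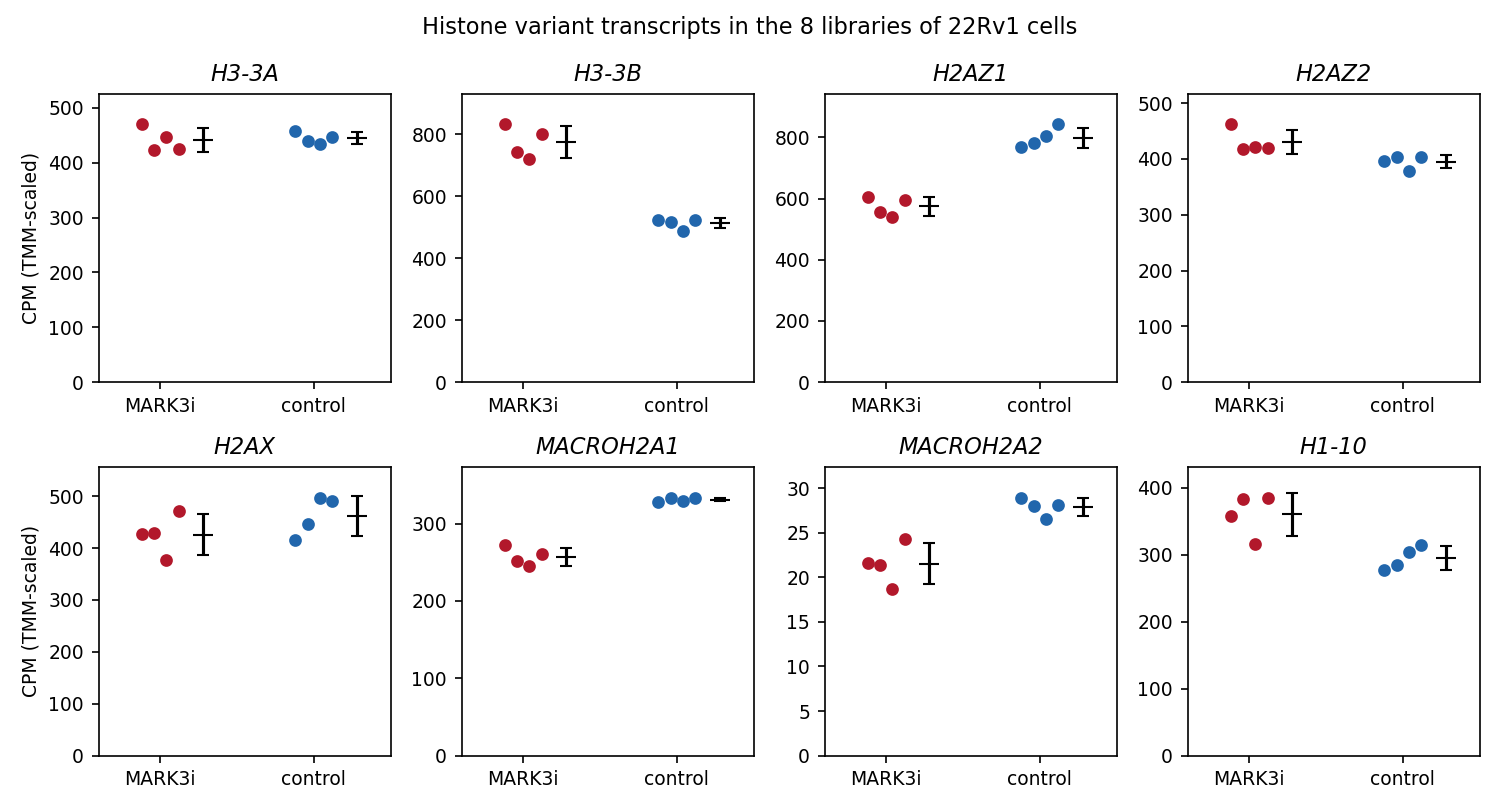
Levels of the 8 tested histone variant genes in CPM on the TMM scale (vertical axes start at 0), with 1 point per library, MARK3i libraries in red and control libraries in blue, and mean ± SD in black (n = 4 each). H3-3B stands higher in all 4 MARK3i libraries, H2AZ1 and both macroH2A genes stand lower in all 4, and the groups overlap for H3-3A and H2AX.

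H3-3A and H3-3B encode the same H3.3 protein, the H3 form that is placed in active genes, enhancers and telomeres independently of replication. H3-3B (ENSG00000132475; chr17:75776434-75785893, minus strand, 4 exons in its MANE Select transcript) had 832, 745, 722 and 802 CPM in MARK3i libraries 1 to 4, against 524, 517, 489.5 and 524 CPM in control libraries. Every MARK3i library lay above every control. The mean was 775 ± 50.8 CPM in MARK3i and 514 ± 16.6 CPM in control libraries, 1.51-fold higher, with a log2 fold change of 0.59 ± 0.06 (SE, edgeR adjusted p = 2.35e-09). It was the largest change among the members in size, and 26.7% of all tested genes changed more. UNK, on the opposite strand, overlaps its gene model and had 466 to 881 counts per library, and the labels do not say if reads were counted by strand.

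H3-3A (ENSG00000163041; chr1:226061851-226072019, plus strand, 4 exons) had 469.7, 422, 447 and 425 CPM in MARK3i libraries, against 459, 439, 433 and 447 CPM in control libraries. The groups overlapped, with a log2 fold change of −0.01 ± 0.05 (edgeR adjusted p = 0.864). Its sign turned with the scaling, at 0.09 with total counts, where it did not pass either. Of 55 processed and other pseudogenes named H3P or H2AZP in the tables, or H2AZ2P1, only H3P6 and H3P16 had over 100 counts in every library, and the others had at most 60. H3P6 (chr2:174719908-174720318, plus strand) had 1558 to 2546 counts in MARK3i and 1325 to 1487 counts in control libraries, and 100% of its 31-base words occur in H3-3A transcripts. For H3P16 (chr4:139698144-139698554, minus strand) that share was 85.0%, so reads of H3-3A and of these copies are hard to tell apart. Neither copy passed the test, with a log2 fold change of 0.07 ± 0.06 for H3P6 (edgeR adjusted p = 0.3135) and 0.11 ± 0.08 for H3P16 (edgeR adjusted p = 0.247).

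The balance within the H3.3 pair moved toward H3-3B. The ratio of H3-3A to H3-3B counts was 0.564, 0.567, 0.619 and 0.53 in MARK3i libraries, against 0.875, 0.85, 0.885 and 0.8525 in control libraries. The groups did not overlap. The log2 ratio was −0.81 ± 0.09 in MARK3i and −0.21 ± 0.03 in control libraries (SD, n = 4 each), a difference of −0.60 (exact two-sided permutation p = 0.0286, the smallest that 4 against 4 allows, and 0.0429 adjusted over 3 pairs). A ratio within a library does not depend on the scaling between libraries. With the pseudogene counts added to H3-3A the difference was −0.58. The shares and sums that follow leave those counts out. H3P6 alone had 116.3 CPM in MARK3i and 110.5 CPM in control libraries, so the H3-3A part may be set too low. Per kilobase of MANE Select transcript, H3-3B made up 41.0% ± 1.55 of the H3.3 pool in MARK3i and 31.4% ± 0.43 in control libraries. The summed H3.3 level per kilobase was 699 ± 33.4 CPM in MARK3i and 605.5 ± 15.4 CPM in control libraries. Per kilobase of all annotated exons the sum was 241.6 ± 11.97 CPM in MARK3i and 199.98 ± 5.24 CPM in control libraries, and the H3-3B share 52.3% ± 1.60 in MARK3i and 41.9% ± 0.487 in control libraries.

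H2AZ1 and H2AZ2 encode the H2A.Z proteins, which differ at only a few residues and mark nucleosomes beside transcription starts. H2AZ1 (ENSG00000164032; chr4:99948086-99950355, minus strand, 5 exons) had 605, 557, 541 and 594 CPM in MARK3i libraries, against 767, 781, 804 and 842 CPM in control libraries. Every MARK3i library lay below every control. The mean was 574 ± 30.4 CPM in MARK3i and 799 ± 32.8 CPM in control libraries, a log2 fold change of −0.48 ± 0.06 (edgeR adjusted p = 7.05e-08), 1.39-fold lower. Genes of S phase and replication fell alongside it, in 22 of 22 tested cases with a median log2 change of −0.87. Among all tested genes 28.3% were lower, and the median log2 change was 0.02. The part of the S phase genes in the fall of H2AZ1 was not tested.

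H2AZ2 (ENSG00000105968; chr7:44826791-44848087, minus strand, 5 exons) had 462, 417, 421 and 419 CPM in MARK3i libraries, against 397, 404, 378 and 403 CPM in control libraries. All MARK3i libraries lay above all controls, by little, and MARK3i replicate 1 stood apart from the other 3. The log2 fold change of 0.12 ± 0.05 did not pass (edgeR adjusted p = 0.0581). Without MARK3i replicate 1 it was 0.07 (edgeR adjusted p = 0.286). It passed with total counts at 0.22, with upper-quartile scaling at 0.15, with libraries thinned to the lowest total at 0.13 and with the library set as a term at 0.12, so no call is made for this gene. The library set was drawn from these libraries' own deviations, so the pass with it adds no support.

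The balance within the H2A.Z pair moved away from H2AZ1. There were 1.31, 1.34, 1.28 and 1.42 counts of H2AZ1 per count of H2AZ2 in MARK3i libraries, against 1.93, 1.94, 2.13 and 2.09 in control libraries. The groups did not overlap. The log2 ratio was 0.42 ± 0.06 in MARK3i and 1.01 ± 0.07 in control libraries (SD, n = 4 each), a difference of −0.60 (exact two-sided permutation p = 0.0286, 0.0429 adjusted over 3 pairs). In both groups this ratio was higher in the library set with control replicates 3 and 4. The permutation did not keep the sets apart and took the libraries of a group as independent. Per kilobase, H2AZ1 still made up 82.35% ± 0.619 of the H2A.Z pool in MARK3i libraries, and 87.6% ± 0.545 in control libraries.

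**Figure D2:**
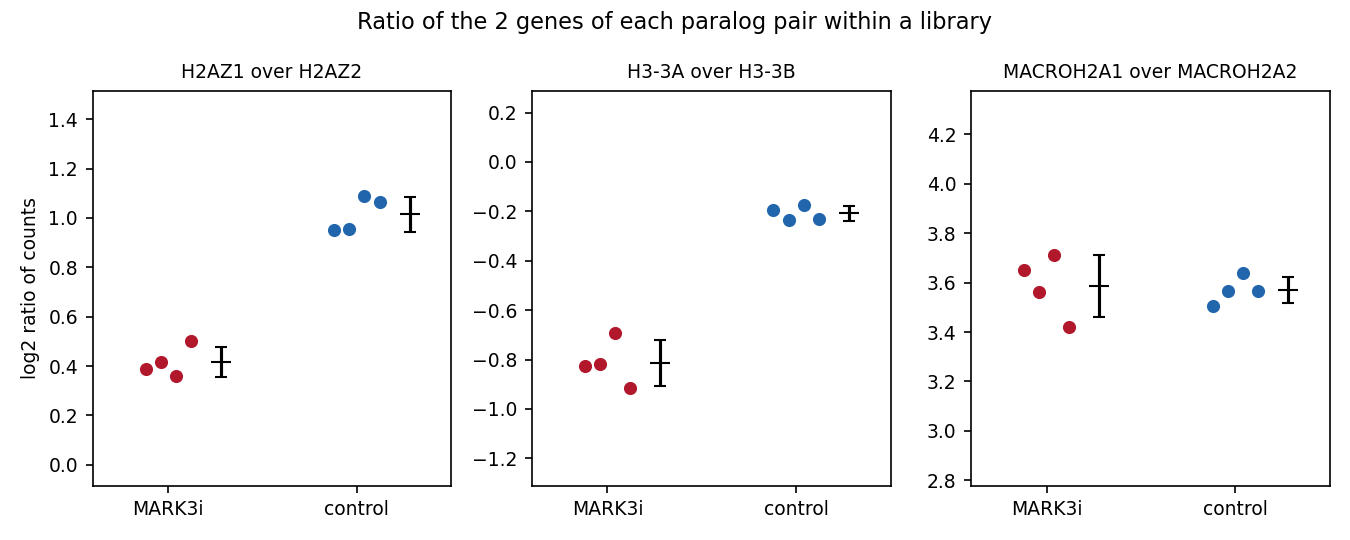
Log2 ratio of the counts of both genes of each paralog pair, 1 point per library, MARK3i in red, control in blue, mean ± SD in black (n = 4 each). The H2AZ1 over H2AZ2 and the H3-3A over H3-3B ratios are each lower in all 4 MARK3i libraries, by 0.60 on average, and the MACROH2A1 over MACROH2A2 ratios overlap.

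MacroH2A proteins carry a large non-histone macrodomain and are enriched in repressed chromatin. MACROH2A1 (ENSG00000113648; chr5:135334381-135399914, minus strand, 9 exons) had 272, 252, 245 and 261 CPM in MARK3i libraries, against 328, 333, 329.8 and 333 CPM in control libraries. The control libraries varied by an SD of 2.30 CPM, and every MARK3i library lay below them. The log2 fold change was −0.36 ± 0.05 (edgeR adjusted p = 2.15e-06). The gene makes alternative macrodomain isoforms that these gene-level counts do not separate. MACROH2A2 (ENSG00000099284; chr10:70052544-70112282, plus strand, 9 exons) was much less abundant, with 21.6, 21.3, 18.7 and 24.3 CPM in MARK3i libraries, against 28.9, 28.05, 26.5 and 28.1 CPM in control libraries. Its groups did not overlap either, with a log2 fold change of −0.37 ± 0.09 (edgeR adjusted p = 0.000574). AIFM2, which overlaps it on the opposite strand, had 35 to 62 counts per library, against 268 to 476 for MACROH2A2.

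For the macroH2A pair no shift in balance passed the test. There were 12.6, 11.8, 13.1 and 10.7 counts of MACROH2A1 per count of MACROH2A2 in MARK3i libraries, against 11.4, 11.9, 12.4 and 11.9 in control libraries. The groups overlapped. The log2 ratio was 3.59 ± 0.13 in MARK3i and 3.57 ± 0.05 in control libraries (SD, n = 4 each), a difference of 0.02 (exact two-sided permutation p = 0.886).

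H2AX, whose serine near the C-terminus is phosphorylated by ATM, ATR and DNA-PK around DNA breaks, did not pass the test. H2AX (ENSG00000188486; chr11:119093874-119095465, minus strand, 1 exon) had 426, 429, 377 and 472 CPM in MARK3i libraries, against 416, 446, 497 and 491 CPM in control libraries. The groups overlapped, with MARK3i replicate 3 lowest and control replicate 3 highest. The log2 fold change was −0.12 ± 0.07 (edgeR adjusted p = 0.135). Its spread followed the library sets, with 402 CPM in MARK3i and 431 CPM in control libraries of the set with control replicates 1 and 2, and 450.4 CPM in MARK3i and 494 CPM in control libraries of the other set. With the set as a term it passed at −0.12 (edgeR adjusted p = 0.0272). The sets were drawn from these libraries' own deviations, so that term takes out spread by construction. With it, 5386 of all genes were called higher and 5021 lower, against 4899 and 4652, so this pass adds no support. H2AX also passed without MARK3i replicate 4 at −0.17 (edgeR adjusted p = 0.0417) and without control replicate 1 at −0.17 (edgeR adjusted p = 0.0411). H2AX transcript is GC-rich, at 66.8% G and C, and with GC offsets, which take out how each library's counts vary with transcript GC, its value was 0.12 (edgeR adjusted p = 0.0666), so no direction is given.

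H1-10 encodes the linker histone H1x, which binds the DNA entering and leaving the nucleosome. H1-10 (ENSG00000184897; chr3:129314771-129316286, minus strand, 1 exon) had 358, 382, 316 and 385 CPM in MARK3i libraries, against 277, 284, 304 and 315 CPM in control libraries. The groups did not overlap, but MARK3i replicate 3 and control replicate 4 were nearly level. The log2 fold change was 0.29 ± 0.06 (edgeR adjusted p = 0.000382), a fold of 1.22. Its transcript is the most GC-rich of the members, at 68.6% G and C, and with the GC offsets the value was 0.55. The antisense gene H1-10-AS1, which overlaps it, had 27 to 64 counts per library.

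H2AJ (ENSG00000246705; chr12:14774405-14778002, plus strand, 1 exon), an H2A variant known from senescent human fibroblasts and some secretory epithelia, was at or near 0. It had 3, 0, 0 and 1 counts in MARK3i libraries and 1, 1, 2 and 0 counts in control libraries. A count of 0 allows up to 0.141 CPM in MARK3i replicate 2, 0.222 CPM in MARK3i replicate 3 and 0.224 CPM in control replicate 4 (3 counts of the library's total, counting error only). At this depth no difference was detectable and no fold is given. Its promoter, which matched the RefSeq table, held 3 CCAAT and no TATAAA.

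**Figure D3:**
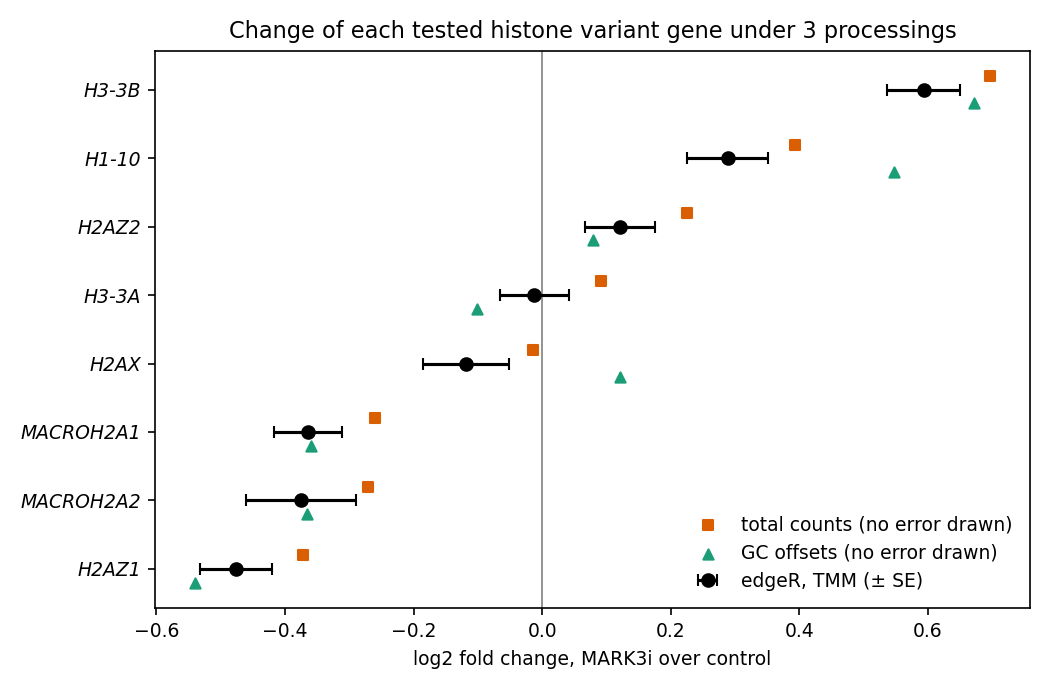
Log2 fold change of MARK3i over control for the 8 tested members (horizontal axis), with black points for the edgeR fit on TMM factors ± SE, orange squares for total counts and green triangles for the GC offsets. H3-3B, H1-10, both macroH2A genes, H2AZ1 and H2AZ2 keep their side of 0 in these 3 processings, and H2AX and H3-3A do not.

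Between genes, levels were compared per kilobase of MANE Select transcript. In MARK3i libraries H2AZ1 was highest at 663 ± 35.1 CPM per kilobase, followed by H3-3A (412 ± 20.6), H3-3B (287 ± 18.8), H2AX (268 ± 24.5), H1-10 (238 ± 21.1), H2AZ2 (142 ± 7.06), MACROH2A1 (134 ± 6.01) and MACROH2A2 (11.1 ± 1.19). The ranges over libraries overlapped between H3-3B and H2AX, between H2AX and H1-10, and between H2AZ2 and MACROH2A1. In control libraries the order of levels was H2AZ1 (922 ± 37.9 CPM per kilobase), H3-3A (416 ± 10.1), H2AX (290.5 ± 24.1), H1-10 (195 ± 11.5), H3-3B (189.96 ± 6.12), MACROH2A1 (173 ± 1.20), H2AZ2 (131 ± 3.88) and MACROH2A2 (14.4 ± 0.519). Among controls only the neighbours H1-10 and H3-3B overlapped. H3-3B thus ranked 3 among the members in MARK3i and 5 in control libraries. With the length of all annotated exons in place of the MANE Select length, H2AX ranked 1 in MARK3i and 2 in control libraries, so the order depends on the length used.

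The pool of H2A-type variant transcripts was lower as a sum, at 1218 ± 65.2 CPM per kilobase in MARK3i and 1531 ± 59.7 in control libraries (H2AX, H2AZ1, H2AZ2, both macroH2A genes and H2AJ; SD, n = 4 each). H2AZ1 made up 54.4% ± 0.516 of it in MARK3i and 60.25% ± 0.395 in control libraries. H2AX made up 21.9% ± 1.22 in MARK3i and 18.95% ± 0.954 in control libraries, and H2AZ2 made up 11.7% ± 0.584 in MARK3i and 8.545% ± 0.433 in control libraries. MACROH2A1 took 11.02% ± 0.236 in MARK3i and 11.3% ± 0.393 in control libraries. These shares depend on the length used. Per kilobase of all annotated exons H2AX made up 44.65% ± 1.78 in MARK3i and 40.3% ± 1.46 in control libraries, and MACROH2A1 2.53% ± 0.0925 in MARK3i and 2.71% ± 0.129 in control libraries. The summed H2A-type level was then 598.5 ± 36.9 CPM per kilobase in MARK3i and 720.1 ± 36.8 in control libraries.

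The 5 called members kept their direction inside both library sets. That was fixed in advance, since their groups of libraries did not overlap, so it adds no support. H3-3B differed by 0.58 and 0.61 on the log2 scale within the sets, H1-10 by 0.26 and 0.31, H2AZ1 by −0.43 and −0.52, MACROH2A1 by −0.35 and −0.37, and MACROH2A2 by −0.50 and −0.26. The genes whose log2 CPM followed H3-3B most closely over the 8 libraries, among 10270 genes of at least 10 CPM, were TAF7 (Pearson r = 0.996), FIG4 and ARPC5 (r = 0.995 each). For H2AZ1 they were SLIRP, IDH2 and TMEM238 (r = 0.999 each). These correlations are descriptions in which the libraries and the group difference are shared.

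Factors that place H3.3 independently of replication changed in both directions. Of the 7 genes of H3.3 deposition, 3 were higher, 2 lower and 2 did not pass (median log2 change 0.12, beside 0.02 for all tested genes). Among all tested genes 29.8% were higher and 28.3% lower, and the 2 of 7 lower and 5 of 7 called here are read against these shares and the 58.1% called either way. The median was 0.04 without MARK3i replicate 1 and 0.07 without control replicate 3. UBN2, a subunit of the HIRA complex, had 77.9 ± 7.32 CPM in MARK3i and 58.9 ± 4.73 CPM in control libraries (0.40 ± 0.07, edgeR adjusted p = 4.91e-05). HIRA itself, the complex's scaffold, had 18.4 ± 2.32 CPM in MARK3i and 26.3 ± 1.83 CPM in control libraries (−0.51 ± 0.09, edgeR adjusted p = 5.4e-05). DAXX, the chaperone that acts with ATRX, fell (−0.25 ± 0.07), CABIN1 (0.21 ± 0.06) and UBN1 (0.20 ± 0.06) rose, and ATRX (−0.16 ± 0.13) and ASF1A (0.12 ± 0.09) did not pass. With total counts 4 were higher and 1 lower, and with GC offsets 3 each way with a median of −0.02.

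The H2A.Z exchange machinery was also mixed. Of 13 genes, 4 were higher, 6 lower and 3 did not pass (median −0.18). Over all tested genes 29.8% were higher, 28.3% lower and 58.1% called either way. ACTR6 (0.61 ± 0.07) and SRCAP (0.61 ± 0.14), subunit and ATPase of a complex that inserts H2A.Z, rose, as did DMAP1 (0.44 ± 0.08) and ZNHIT1 (0.18 ± 0.06). SRCAP was low, at 8.84 ± 1.14 CPM in MARK3i and 5.79 ± 0.712 CPM in control libraries. RUVBL1, an AAA+ ATPase shared by several remodelling complexes, fell the most (−0.79 ± 0.06), with 76.6 ± 2.97 CPM in MARK3i and 132 ± 5.98 CPM in control libraries. ACTL6A (−0.39 ± 0.06), RUVBL2 (−0.23 ± 0.06) and VPS72 (−0.23 ± 0.06), the H2A.Z chaperone YL1, also fell. So did INO80 (−0.23 ± 0.08) and the more abundant EP400 (−0.30 ± 0.08), at 111.5 ± 16.9 CPM in MARK3i and 137 ± 4.56 CPM in control libraries. ANP32E, which removes H2A.Z, did not pass (0.10 ± 0.06). With total counts 5 were higher and 3 lower, so the list has no direction that holds over the scalings.

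In the H2AX damage-signalling list of 13 genes, 6 were lower, 2 higher and 5 did not pass (median −0.16, or −0.06 with total counts). The 8 of 13 called are near the 58.1% of all tested genes, so the count is no result about the list. Without MARK3i replicate 1 or 3, or without control replicate 3, 1 was called higher. MDC1, which binds phosphorylated H2AX, had 125 ± 17.9 CPM in MARK3i and 221 ± 8.22 CPM in control libraries (−0.81 ± 0.08, edgeR adjusted p = 7.66e-09). PRKDC, the catalytic subunit of DNA-PK (−0.60 ± 0.09), the ubiquitin ligase gene RNF168 (−0.31 ± 0.07) and BAZ1B, a kinase for H2AX (−0.25 ± 0.06), fell. NBN (0.34 ± 0.08) and TP53BP1 (0.19 ± 0.07) rose, and ATM (−0.09 ± 0.09) did not pass. Of the 4 macroH2A partners, HELLS, a remodeller linked to macroH2A deposition (with 66.7 ± 7.23 CPM in MARK3i and 133 ± 7.12 CPM in control libraries), and PARP1, which binds macroH2A (−0.59 ± 0.05), fell. APLF, a macroH2A chaperone, rose (0.65 ± 0.21) at 3.37 ± 0.298 CPM in MARK3i and 2.13 ± 0.560 CPM in control libraries. ATRX, the remaining partner, did not pass (−0.16 ± 0.13). The 2 lower and 1 higher of 4 stand beside 28.3% lower and 29.8% higher among all tested genes.

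General chaperones for H2A-H2B and H1 included 6 lower, 3 higher and 2 not passing of 11 tested genes (median −0.30). For comparison, 28.3% of all tested genes were lower, 29.8% higher and 58.1% called either way. PTMA, prothymosin alpha, an acidic protein that binds H1, had 624 ± 32.1 CPM in MARK3i and 1305 ± 24.3 CPM in control libraries (−1.06 ± 0.05, edgeR adjusted p = 1.69e-14). NPM3 (−0.93 ± 0.07), the FACT subunit SSRP1 (−0.52 ± 0.05) and SET (−0.46 ± 0.06) fell. In the nucleosome assembly family, NAP1L3 rose by 2.19 ± 0.13, with 18.4 ± 2.56 CPM in MARK3i and 4.02 ± 0.496 CPM in control libraries, and NAP1L2 by 1.26 ± 0.11, while the abundant NAP1L1 had 1043 CPM in MARK3i and 1044 CPM in control libraries.

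Chaperones of replication-coupled H3-H4 assembly included 8 lower and 0 higher of 9 genes (median −0.75). Beside them, 28.3% of all tested genes were lower and 29.8% higher. MCM2, a subunit of the replicative helicase that also binds H3-H4, had 101.5 ± 7.74 CPM in MARK3i and 224 ± 6.40 CPM in control libraries (−1.14 ± 0.06, edgeR adjusted p = 3.35e-14). TONSL, which binds newly made H3-H4 (−1.11 ± 0.07), and the CAF-1 subunits CHAF1A (−0.91 ± 0.06) and RBBP4 (−0.75 ± 0.05) also fell. RBBP7 did not pass (−0.03 ± 0.05). CENPA, the centromeric H3, rose (0.53 ± 0.09), with 24.15 ± 1.56 CPM in MARK3i and 16.8 ± 1.64 CPM in control libraries (edgeR adjusted p = 2.21e-05).

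The replication-dependent histone genes are the family most like the variants. Only 19 of 64 passed the filter, with 10 higher, 2 lower and 7 not passing (median 0.51). The shares over all tested genes were 29.8% higher and 28.3% lower. The count of lower genes was 1 with DESeq2, upper-quartile scaling, total counts, GC offsets (with and without the replicate block) or thinning, and without MARK3i replicate 2 or 3 or control replicate 2 or 4. H2AC6, whose stem-loop is shown above, had 19.9 ± 1.38 CPM in MARK3i and 5.404 ± 0.828 CPM in control libraries (1.88 ± 0.12, edgeR adjusted p = 7.74e-13). H2AC25 had 25.8 ± 2.42 CPM in MARK3i and 38.65 ± 2.98 CPM in control libraries (−0.59 ± 0.08, edgeR adjusted p = 1.48e-06). All 64 genes summed to 125 to 142 CPM in MARK3i and 102 to 109.7 CPM in control libraries, far below the variants, and the labels name no kit for selecting or depleting RNA. The difference between both families was not tested, since genes that passed the filter only through the group where they are high had to differ, and reads can be shared between copies of the clustered genes.

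**Figure D4:**
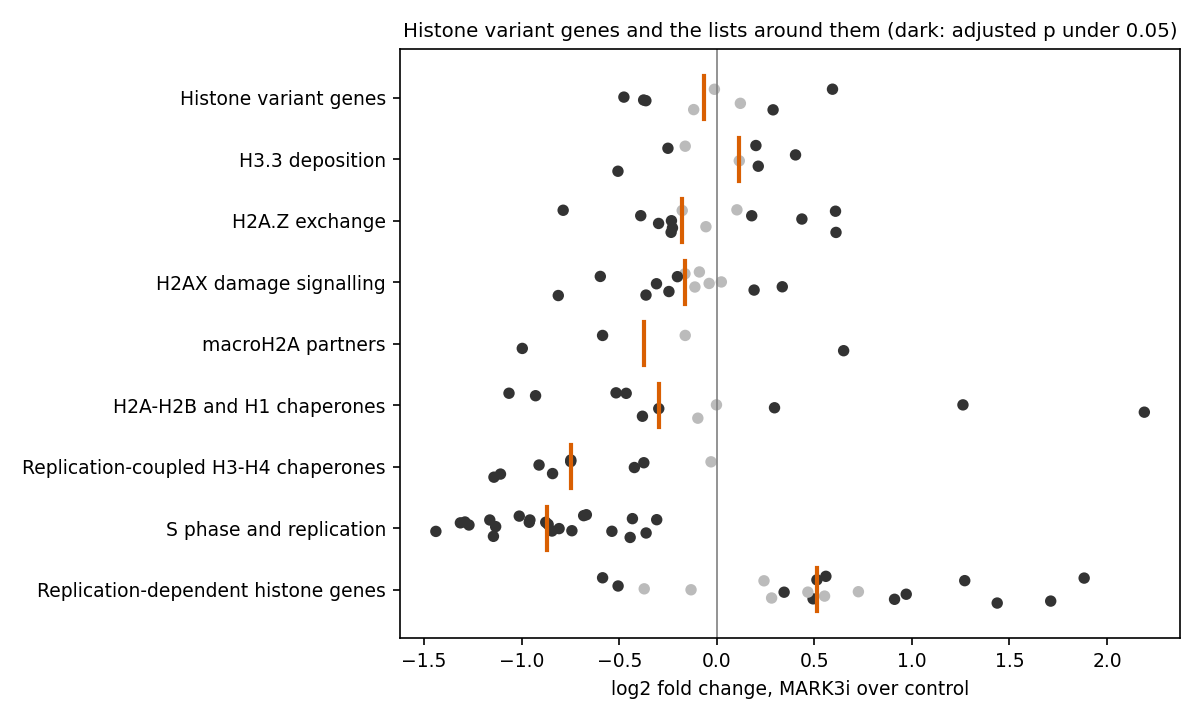
Log2 fold change of MARK3i over control (horizontal axis) for the tested histone variant genes and the tested genes of each list, 1 point per gene, dark where the adjusted p is under 0.05, with the median as an orange bar. The variants lie on both sides of 0, the S phase genes all lie below it, and most replication-dependent histone genes lie above it.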

How the data were processed

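Total RNA of 22Rv1 cells was sequenced in 4 MARK3i and 4 control samples, and groups and replicate numbers were read from the sample titles. The deposited values are raw counts per Ensembl gene, made by the authors with featureCounts on hg38, per the submitters' processing notes, which also name DESeq2. Aligner, annotation, versions, kit and strandedness were not given in the sources used here. Symbols, lengths and overlaps come from GENCODE release 44, which held 58207 of 58735 identifiers, and the other 528 stayed in the fit with at most 0.0979% of a library's counts.

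The test was edgeR 4.0.16 (R 4.3.3) with group as the only term, after filterByExpr and TMM scaling (glmQLFit with robust dispersion, glmQLFTest, adjusted p under 0.05 over 16452 genes). The median SE of a log2 fold change was 0.0957. Paralog ratios used exact permutation tests over all 8 libraries (scipy 1.17.1), which did not keep the library sets apart. Named genes are all members, up to 4 called genes per direction with the smallest p from each list (not all are printed), and the genes most like a member. Markers, EP400, INO80 and the genes named as not passing are outside this rule. EP400, INO80 and those not passing were chosen after their values were seen. Members and lists were chosen with earlier results of these data known. Alternatives were total-count, upper-quartile and RLE scaling, 2 other filters, DESeq2 1.42.0, limma-voom 3.58.1, non-robust dispersion, the replicate block, GC offsets, thinning, leaving out each library and stricter thresholds. GC offsets used the median GC over a gene's annotated transcripts. For H3-3B that was 56.4%, against 43.1% in its MANE Select transcript, so its value with GC offsets depends on the transcripts taken. The library set as a term, the H3P pseudogene sum and the all-exon lengths of the pools were added after seeing the data.

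Every pair of libraries differed by more than sampling noise, with a chi-square per degree of freedom of at least 1.708. The lowest values were 1.708 for control replicates 3 and 4 and 1.727 for control replicates 1 and 2. Those pairs each share a library set, and the other control pairs had 3.415 to 4.596. Pairs of MARK3i libraries had 3.4 to 9.796. The p-values take the 4 controls as independent, and the labels do not say if these pairs share a culture. Some genes of the lists are not reported here.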

Additional observations from a re-analysis of the deposited data

Results flagged for a closer look

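The H2AZ2 level in MARK3i libraries is given because 1 library stood far from the other 3. MARK3i replicate 1 had 462 CPM and replicates 2 to 4 had 417 to 421 CPM, so its gap to the nearest library was 0.907 of the group's range, above the 95% critical value of 0.829 for 4 samples. In all, 22 groups of 4 libraries were examined, and chance alone marks about 1 in 20. The H2AZ1 over H2AZ2 count ratio of that library was 1.31, inside the 1.28 to 1.42 of the MARK3i group.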

How the results depend on the processing

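H3-3B, H1-10, H2AZ1, MACROH2A1 and MACROH2A2 kept direction and call in all 21 refits (log2 0.54 to 0.70, 0.25 to 0.55, −0.54 to −0.37, −0.41 to −0.26 and −0.44 to −0.27). Total counts moved the median of all tested genes to 0.13, against 0.02 with TMM, and the higher share of all calls to 63.5%, against 51.3%. With a minimum log2 change of 1, 0 members were called higher and 0 lower, against 2 and 3, 6 and 11 list genes, against 25 and 54, and 698 and 1002 of all genes, against 4899 and 4652. Without each library in turn, 2 members were called higher and 3 to 4 lower, and the ratio differences ranged from −0.63 to −0.57 for H2A.Z, −0.64 to −0.57 for H3.3 and −0.03 to 0.07 for macroH2A. The calls of H2AZ2 and H2AX under other settings stand beside them, and the cause was not tested. Same-numbered libraries correlated in their deviations at 0.292, −0.316, −0.285 and 0.331, so the numbers pair no samples. With the replicate block 4912 genes were called higher and 4684 lower, with 2 and 3 members, 25 and 54 list genes, and ratio differences of −0.60, −0.60 and 0.02, whose exact paired p cannot go below 0.125 with 4 pairs. H2AJ, at 0 to 3 counts per library, did not pass the low-count filter.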
